A study of Sus scrofa with 19 samples.

Results

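The comparison described here is that of left ventricular (LV) myocardium from pigs given free doxorubicin (DOX) with that of control pigs (Control). It comprised the 8 libraries whose count files carry the sample titles DOX1 to DOX5 and Control1 to Control3, out of 19 libraries in the whole series, and no measured value was used to choose them. The labels describe all animals as female large white pigs and give no age, and each library came from 1 pig. DOX pigs received 60 mg/m2 doxorubicin in each of 3 cycles on days 1, 22 and 43, and this experiment was stopped at 3 months because the animals were in poor health. For Control pigs the labels give a follow-up of 6 months. They are called sham-operated in the labels, while the methods of the study speak both of sham-operated controls and, for sequencing, of untreated pigs that matched the others in age, and give no follow-up for them. Tissue of both groups was taken from the anterior wall. The other libraries, used here only for reference, came from pigs given liposomal doxorubicin (MYO, n = 5), pigs with reperfused infarction sampled in the posterior wall (RemoLV, n = 3) and pigs with stenosis of the aortic isthmus (Hyper, n = 3). DOX and MYO tissue came from an earlier experiment of the same group, so that treatment, experiment and, by the labels, length of follow-up cannot be told apart.

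Doxorubicin is an anthracycline that intercalates into DNA and traps topoisomerase II on its cut ends, TOP2A being the isoform of dividing cells and TOP2B that of resting cells such as cardiomyocytes. It is used against many tumors, and its use is limited by damage to the heart, in which oxidant production, iron and mitochondrial injury are the best known elements. The chronic form ends in dilated cardiomyopathy with loss of myocytes and interstitial fibrosis.

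The names of the libraries are in conflict. The authors also deposited a table of transformed expression, and each of its 19 sample columns followed exactly 1 count file with a Spearman correlation across genes of 1.0 (the highest correlation with any second file was 0.992). For 8 columns, the group named in the table differed from that of the count file. What the table calls Control1 to Control3 was found in the RemoLV-labelled count files, and what it calls RemoLV1 to RemoLV3 in the Control-labelled ones, while DOX5 and MYO1 had changed places. All results were therefore computed by the labels of the count files (file labels, the main comparison) and again with the names of the table (table names), in which DOX1 to DOX4 and the MYO1-labelled library were set against the 3 RemoLV-labelled libraries. Which of the namings is right could not be decided from the labels, and genes of the Y chromosome were left aside.

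The tissue markers differed between the candidate controls. MYL2, the regulatory light chain of ventricular myosin, was at 9935, 8975, 10114, 11370 and 11762 CPM (counts per 1000000 counts, scaled by TMM) in DOX1 to DOX5 and at 15896, 13577 and 18077 CPM in Control1 to Control3. The groups did not overlap, but the difference did not pass the test (log2 fold change −0.60, SE 0.33, adjusted p = 0.153). In the RemoLV-labelled libraries MYL2 was at 18.6 to 115 CPM, whereas MYL4, the light chain of atrial myosin, was at 6029 to 8130 CPM. In DOX, MYL4 was at 3.13 to 11.9 CPM, and in Control at 0.594 to 3.1 CPM. The summed level of 7 ventricular markers was 14857 to 17767 CPM in DOX, 18377 to 25314 CPM in Control and 2338 to 3277 CPM in the RemoLV-labelled libraries, and that of 7 atrial markers was 727 to 1057, 815 to 1244 and 8526 to 12023 CPM. With the table names, DOX was thus compared with libraries in which atrial marker genes were high and MYL2 was low, although the label of these libraries names the posterior wall. The part that this difference in marker genes has in the table-name results was not tested. Because of this, Hyper, whose ventricular markers summed to 21695 to 24394 CPM and whose group is the same in both deposits (Hyper1 and Hyper3 exchange places within it), was used as an additional reference group.

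The DOX libraries held between 10531616 and 15975201 counts and the Control libraries between 17458641 and 20370209. The 13 mitochondrially encoded genes took 12.7% to 19.7% of counts in DOX and 20.7% to 28.8% in Control. Within Control, the library Control2 stood apart from the other two, with HBB (β-globin) at 35.1 CPM against 337 in Control1 and 325 in Control3. HBB was at 108, 59.3, 20.8, 33.3 and 8.4 CPM in DOX1 to DOX5. DOX1 stood apart within DOX by its immediate-early genes. In bulk tissue such as this, fewer cells of a type and less RNA per cell cannot be told apart.

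After filtering, 13552 genes entered the quasi-likelihood test of edgeR with Benjamini-Hochberg adjustment. By file labels, 2842 genes were higher in DOX than in Control at an adjusted p of at most 0.05, the threshold for the false discovery rate (FDR) used throughout (21.0% of those tested) and 2862 were lower (21.1%). Genes that also reached an absolute log2 fold change of 2 are called differentially expressed genes (DEGs) here, and of these 215 were up-regulated and 158 down-regulated. The CPM ranges of the 5 DOX and 3 Control libraries did not overlap for 34.5% of the genes tested. Without Control2, 3143 genes were higher and 3021 lower, and without Control3 these were 1800 and 1987. By table names, 2032 genes were higher (15.0%) and 1976 lower (14.6%), and the DEGs numbered 223 and 371. The shares of all genes called are the background against which the counts of list members below are to be read. Against Hyper, 2019 genes were higher (14.9%) and 2035 lower (15.0%).

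The genes called were largely different under the 2 namings. Of the genes called by file labels, 587 were higher and 472 lower under the table names too, which is 20.7% and 16.5% of the file-label calls and 28.9% and 23.9% of the table-name calls. A further 290 genes that were higher by file labels were lower by table names, and 346 changed in the opposite way. When Hyper took the place of Control, 1520 genes higher and 1622 lower were called in the same direction as by file labels, and 2 in the opposite direction. These comparisons share the DOX libraries. The genes called in one direction by file labels, by table names and against Hyper were 401 higher and 322 lower. Among the genes named below, TOP1, MDM2, CHEK2, ND1, PPARGC1A, UCP3, CD163, DKK3, ROCK2, NMNAT2, HBB, ABCC4, TDP2, ACSL3, ACSL4, RYR2, GRK5, PDE3A, ADCY6, P4HA1, PRDX6, TXNRD2, CP, FOXO3 and NR3C1 passed the test by file labels but not against Hyper. Of all called genes named below, the groups overlapped by file labels for TOP1, ND1, PPARGC1A, ATF3, FOSB, CCN2, HBB, FABP4, ACSL3, PFKFB2, LDHA, GRK5, PDE3A, P4HA1, MX1, IRF7, CAT, GCLM, CP and FTL.

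**Figure D1:**
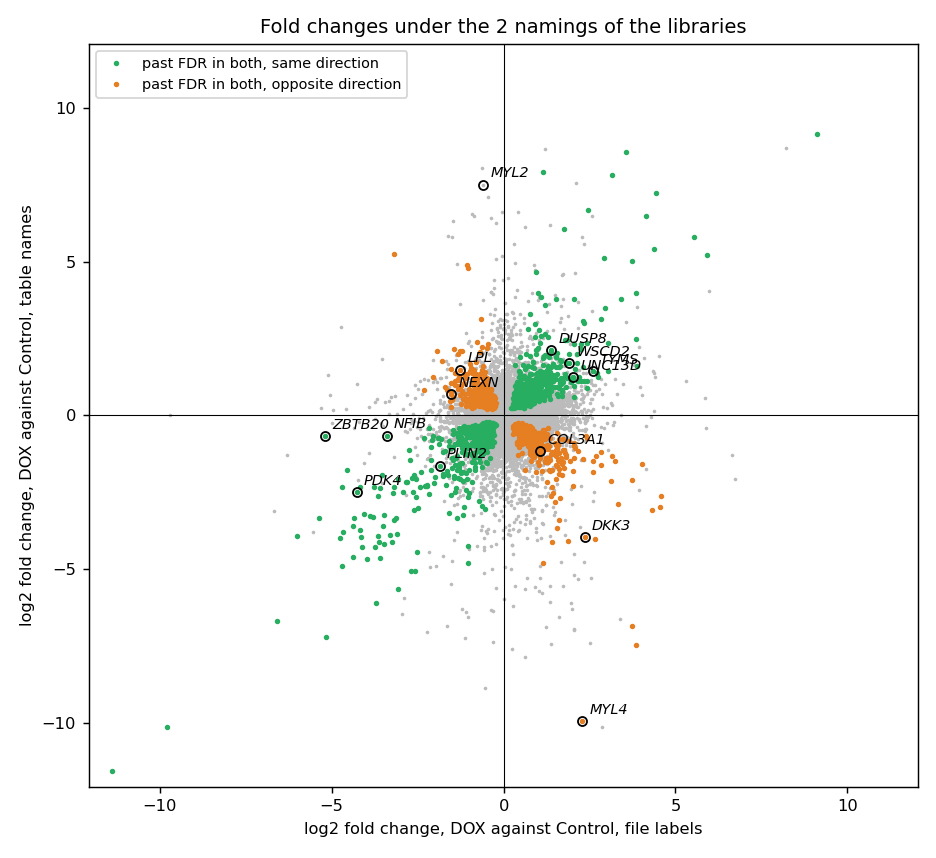
Each point is 1 gene, with its log2 fold change of DOX against Control by file labels on the horizontal axis and by table names on the vertical axis. Green points passed the FDR threshold in both in the same direction, orange points in opposite directions, and grey points in fewer than both. PDK4, PLIN2, UNC13D and WSCD2 lie in the quadrants of equal sign, while DKK3, COL3A1, LPL and NEXN lie in those of opposite sign.

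The fold changes followed the GC content of the mRNA. GC content could be read for 11784 genes (87% of those tested) from RefSeq mRNAs. Among the 2357 genes with the lowest GC content (31.9% to 42.5%), 2.42% of genes were higher and 44.2% lower in DOX, with a median log2 fold change of −0.35. Among the 2357 genes with the highest (60.2% to 76.6%), 49.9% were higher and 3.61% lower, with a median of 0.53. The median GC content was 59.6% among genes called higher, 43.7% among those called lower and 51.3% among all. Against Hyper the same shares were 2.89% and 26.5% at the lowest GC content and 31.8% and 4.03% at the highest, and with the table names 6.7% and 18.7% against 23.3% and 10%. A dependence on base composition moves together with the contrast, and its part in the single results was not tested. After a correction of each library for GC content, 1849 genes were higher (15.7% of 11776) and 1799 lower (15.3%), where the same genes without correction gave 2573 and 2502. Where this correction changes the call of a single gene named below, its adjusted p is given there. Genes without a GC value, such as CCN2, were not included.

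**Figure D2:**
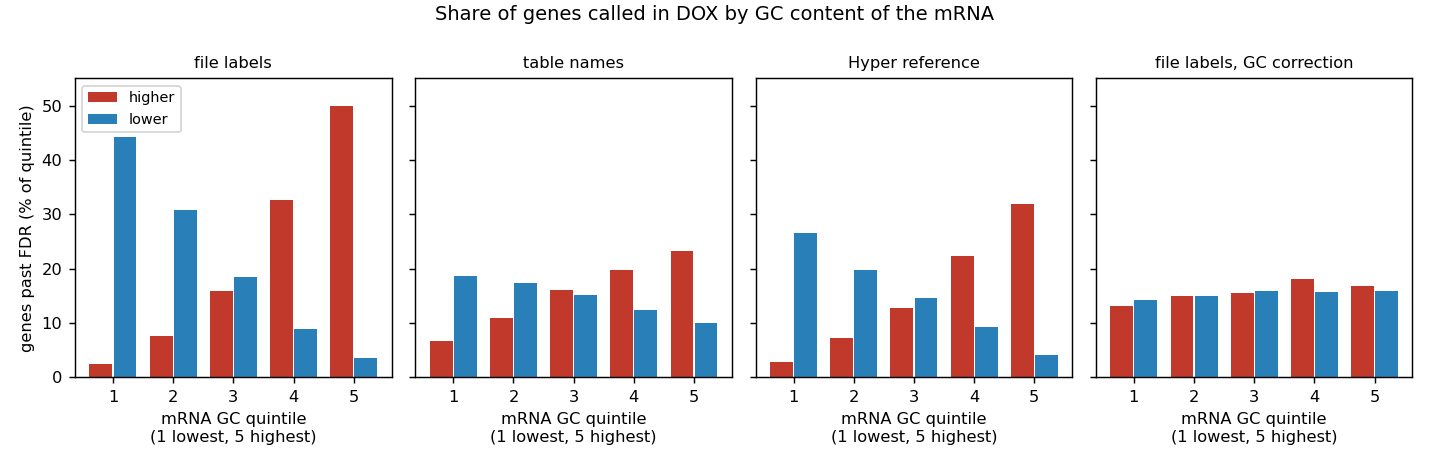
Bars give the percent of genes past the FDR threshold that were higher (red) or lower (blue) in DOX, for 5 nearly equal groups of genes ordered by mRNA GC content. By file labels the share of lower genes falls from 44.2% to 3.61% and that of higher genes rises from 2.42% to 49.9%. After GC correction, which removes the trend with GC content by design, both stay between 13.1% and 18% in every group. The correction also removes any change in expression that follows GC content.

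Among well expressed genes without overlap between the groups, the largest increase was that of HEPACAM, a cell adhesion molecule, at 349, 15.7, 17.4, 73 and 36.1 CPM in DOX1 to DOX5 and at 4.7, 4.34 and 6.21 CPM in Control1 to Control3 (log2 fold change 4.28, SE 0.87, adjusted p = 9.35e-04). DOX1 was far above the other 4, all of which were also above Control. GNAS, the stimulatory G protein subunit that couples adrenergic receptors to adenylyl cyclase, was at 35.1, 41.7, 45.8, 39.5 and 38.7 CPM in DOX and at 7.17, 9.74 and 5.99 CPM in Control (2.39, SE 0.18, adjusted p = 6.88e-08). It was at 55.3 to 71.3 CPM in the RemoLV-labelled libraries and at 6.64 to 8.86 CPM in Hyper. PPP1R3C, which targets protein phosphatase 1 to glycogen, was at 1202, 647, 637, 438 and 951 CPM in DOX and at 134, 184 and 138 CPM in Control (2.35, SE 0.27, adjusted p = 5.87e-06). It was higher in DOX with the table names too (1.13, adjusted p = 0.00427).

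The other leading up-regulated genes were the microtubule protein TPPP (2.55), the matrix protease ADAMTS7 (2.44), the scaffold protein GRIP2 (2.42), the WNT pathway modulator DKK3 (2.36), the secreted C1q family member C1QTNF6 (2.30), ALS2CL (2.28), PXYLP1 (2.19) and the microfibril component MFAP2 (2.06). GRIP2 was also higher with the table names (0.88, adjusted p = 0.0172). ADAMTS7, DKK3 and MFAP2 were significantly lower with them, at −0.72, −3.96 and −0.89, and ALS2CL, C1QTNF6, PXYLP1 and HEPACAM had negative values that did not pass the test. DKK3 was at 39.8 to 97.1 CPM in DOX, 11.6 to 14 CPM in Control and 679 to 894 CPM in the RemoLV-labelled libraries.

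The largest decrease was that of ZBTB20, a zinc finger repressor. It was at 2.68, 2.2, 2.4, 1.47 and 2.86 CPM in DOX and at 90.7, 84.8 and 80.7 CPM in Control, which is 36.9-fold lower (log2 fold change −5.20, SE 0.20, adjusted p = 5.81e-12). ZBTB20 was at 3.1 to 3.65 CPM in the RemoLV-labelled libraries, close to DOX, and at 87.2 to 108 CPM in Hyper, close to Control. The transcription factor NFIB followed the same pattern, with 14, 14.6, 12.1, 11.8 and 14.7 CPM in DOX, 133, 180 and 112 CPM in Control (−3.40, SE 0.19, adjusted p = 5.22e-10), 14.8 to 25.1 CPM in the RemoLV-labelled libraries and 164 to 230 CPM in Hyper. With the table names the decreases of ZBTB20 and NFIB were −0.67 and −0.66 (adjusted p = 0.0336 and 0.0238).

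PDK4, which inhibits pyruvate dehydrogenase and so spares glucose when fatty acids are burnt, was lower under both namings and against Hyper. It was at 285, 127, 34.9, 189 and 80.3 CPM in DOX and at 2834, 1901 and 3547 CPM in Control, 19.2-fold lower (−4.27, SE 0.62, adjusted p = 5.51e-05). No DOX library came near a Control library. PDK4 was at 400 to 1117 CPM in the RemoLV-labelled and 868 to 2614 CPM in the Hyper libraries, and was lower in DOX than in either, with log2 fold changes of −2.49 (adjusted p = 0.00378) and −3.41 (adjusted p = 4.93e-04). After GC correction it was at −3.87 (adjusted p = 1.80e-04).

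The remaining leading down-regulated genes were the osmotic stress factor NFAT5 (−2.71), the p53-activating kinase HIPK2 (−2.70), the BMP co-receptor HJV (−2.52), the chromatin-associated ANKRD12 (−2.50), the endocytic kinase AAK1 (−2.42), the glucocorticoid-responsive ZBTB16 (−2.35), CREBRF (−2.33), HMBOX1 (−2.33) and the kinase ROCK2 (−2.19). By table names, only CREBRF was lower among them (−0.75, adjusted p = 0.0263), and HMBOX1 was higher (0.84, adjusted p = 0.0069). ROCK2 was at 116 and 189 CPM in Control1 and Control3 but at 30 CPM in Control2, near the 19.6 to 28.5 CPM of DOX, and did not differ significantly from Hyper (−0.30, adjusted p = 0.609).

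**Figure D3:**
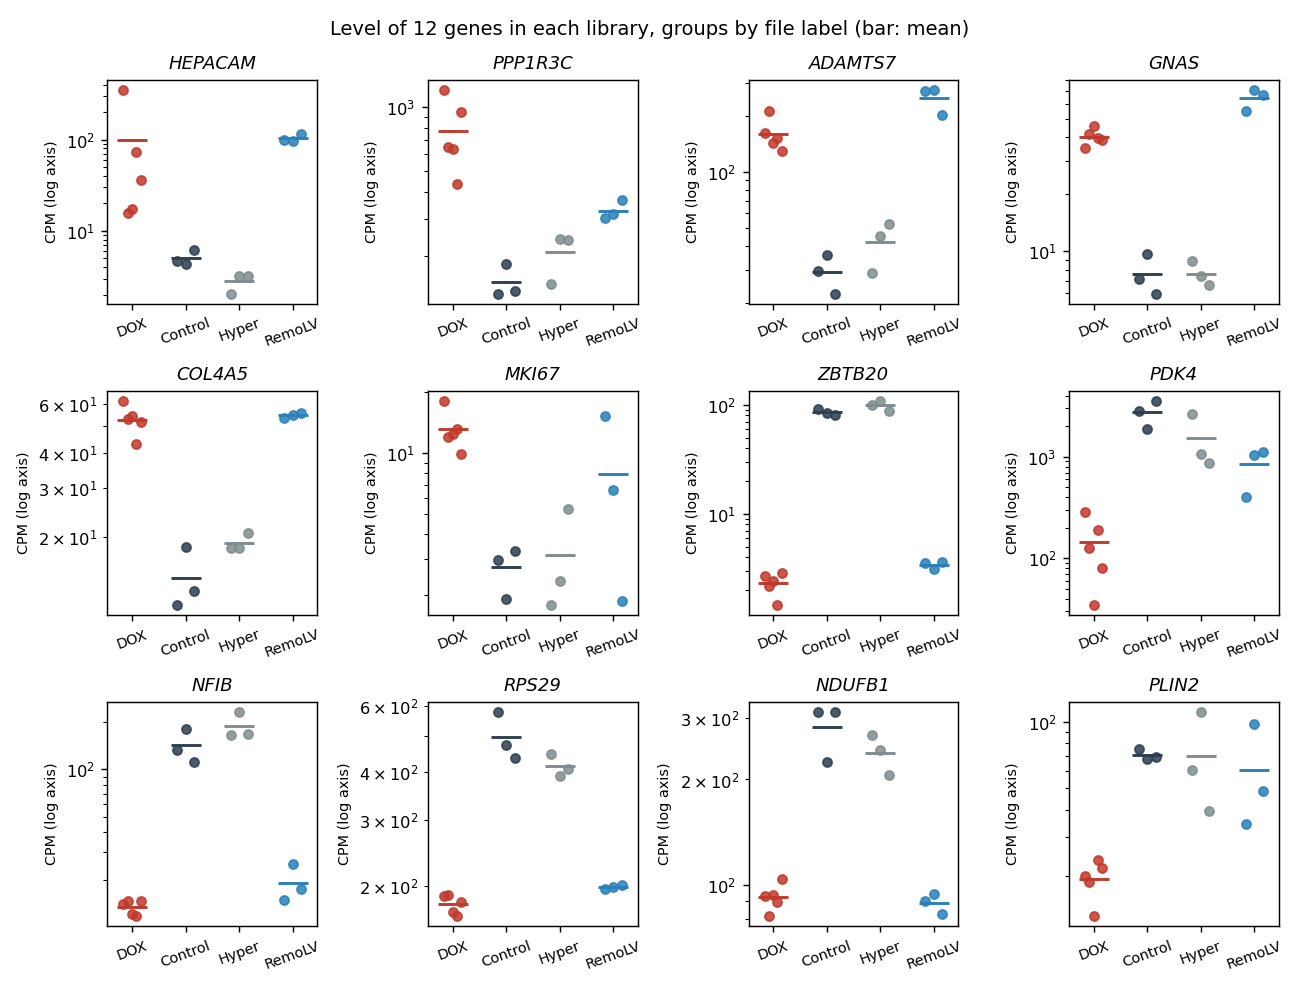
Level of 12 genes in CPM on log axes, 1 point per library and a bar for the group mean, with groups by file label. For ZBTB20, NFIB, RPS29, NDUFB1, GNAS and COL4A5, RemoLV-labelled libraries lie on the side of DOX and Hyper libraries with Control. In the panels of PDK4, PLIN2 and PPP1R3C the DOX libraries lie apart from the 3 other groups shown. MYO is not shown, and its ranges overlapped those of DOX for these genes. They were 34.2 to 219 CPM for PDK4, 21.3 to 52.6 CPM for PLIN2 and 517 to 735 CPM for PPP1R3C.

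The topoisomerases, of which TOP2A and TOP2B are targets of doxorubicin, behaved differently from one another. TOP2A was at 19.7, 13, 12.5, 17.1 and 7.56 CPM in DOX and at 4.4, 3.33 and 4.65 CPM in Control, and was higher in DOX without overlap (log2 fold change 1.76, SE 0.41, adjusted p = 0.00232). TOP2B was at 111 to 139 CPM in DOX and 114 to 139 CPM in Control (−0.06, SE 0.11, adjusted p = 0.713), and at 0.36 after GC correction (adjusted p = 0.00379). TOP1, which relaxes DNA through single-strand cuts, was lower (−0.73, adjusted p = 0.00168, and 0.0543 after GC correction). Of the 6 topoisomerases tested, 3 were higher and 1 was lower, where after GC correction 2 were higher and none lower, and none passed the test with the table names. Of 19 tested genes that reduce or transport anthracyclines, 6 were higher and 4 lower (5 and 4 with the table names). The exporter ABCC1 was at 83.2, 70, 64.9, 67.1 and 52.4 CPM in DOX and 41.7, 25.8 and 37.1 CPM in Control (0.95, SE 0.16, adjusted p = 2.40e-04), and was one of 2 members that were higher under both namings, the other being the exporter ABCC4 (0.55 and 1.63), whose call was lost without Control2.

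Of 29 tested targets of p53, the transcription factor that DNA damage activates, 5 were higher and 7 lower, with a median log2 fold change of 0.08 beside 0.03 over all genes. These counts are close to the background of 21.0% and 21.1%. They were 7 and 2 with the table names and 5 and 4 after GC correction. Without Control2, 9 were higher. CDKN1A, the cell cycle inhibitor p21, was at 43.3, 21.8, 27.3, 18.9 and 12.5 CPM in DOX and at 34.9, 8.55 and 43.7 CPM in Control, and the groups overlapped (−0.22, SE 0.43, adjusted p = 0.701). CDKN1A was at 3.38 to 7.31 CPM in the RemoLV-labelled and 6.7 to 8.98 CPM in the Hyper libraries, so that it was higher in DOX with the table names (2.41, adjusted p = 8.02e-04) and against Hyper (1.67, adjusted p = 0.0128). MDM2, the ubiquitin ligase of p53, was lower by a small margin (−0.31, adjusted p = 0.0454), a call that was lost when any 1 of 7 libraries was left out. With all libraries, it was also lost with a replicate block (adjusted p = 0.0753) and, separately, after GC correction (adjusted p = 0.685). The pro-apoptotic BBC3 was higher (1.68, adjusted p = 0.002) at levels of 1.27 to 3.36 CPM against 0.282 to 0.821 CPM, and CCNG1 lower (−0.70, adjusted p = 2.59e-04). The nuclease AEN was the 1 member that was higher under both namings (0.77 and 1.36).

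Of 31 tested DNA repair genes, 6 were higher and 8 lower, again close to the background. The counts were 0 and 1 with the table names and 9 and 3 after GC correction. Without Control2, 10 were higher, and without Control3, 5 were lower. The checkpoint kinase CHEK2 was higher (1.24, adjusted p = 0.00437), at 2.87, 3.31, 3.13, 3.97 and 2.94 CPM in DOX and 1.57, 1.01 and 1.55 CPM in Control, and TDP2, the phosphodiesterase that removes trapped topoisomerase II from DNA ends, was lower under both namings (−0.54 and −0.56), though not after GC correction (adjusted p = 0.293). Of 20 tested apoptosis regulators, 6 were higher and 2 lower (7 and 1 with the table names, 5 and 0 after GC correction, 2 and 3 against Hyper). The pore-forming BAK1 was at 47.6, 43.8, 46.7, 39.1 and 40.5 CPM in DOX and 26.6, 22.2 and 20.5 CPM in Control (0.91, SE 0.15, adjusted p = 1.64e-04). BAK1 was higher with the table names as well (0.73). Without Control3, 1 regulator was lower.

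Genes of the cell cycle were higher in DOX. Of 26 tested members, 21 were higher and none lower, with a median log2 fold change of 1.42. The other 5, among them CENPE (−0.89) and MCM7 (0.24), did not pass the test, and 1 gene was lower without Control2. All were expressed at low level, the list as a whole summing to 138 to 239 CPM in DOX and 83.8 to 105 CPM in Control. MKI67, the proliferation antigen, was at 18.1, 12, 12.4, 13.1 and 9.92 CPM in DOX and 2.99, 1.9 and 3.31 CPM in Control (2.27, SE 0.48, adjusted p = 0.00116). TYMS, which makes thymidylate for DNA synthesis, was at 18.2, 9.58, 9.2, 8.31 and 9.75 CPM against 1.79, 2.49 and 1.13 CPM (2.59, SE 0.42, adjusted p = 1.51e-04). Which cells were in cycle was not tested. Against Hyper, 19 of the 26 were higher, and after GC correction 22.

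By table names, 6 members were higher and 1 was lower. The 6 were PCNA, MCM2, MCM3, MCM4, MCM6 and TYMS, of which PCNA is the sliding clamp of DNA polymerase and the MCM proteins form the replicative helicase. Of these, the MCM genes were chosen for description after their values were seen. MCM6 was at 22, 18.5, 20.8, 19.6 and 14.5 CPM in DOX and 13.2, 10.5 and 13.3 CPM in Control (0.63, SE 0.21, adjusted p = 0.0207), a call that was lost without Control2. MCM6 was at 9.59 to 9.99 CPM in the RemoLV-labelled libraries (0.97 with the table names). PCNA was at 33.3, 30.4, 25.7, 31.4 and 21.6 CPM against 15, 18.6 and 17.3 CPM (0.74, SE 0.15, adjusted p = 0.00104). MCM2, MCM3 and MCM4 were higher with log2 fold changes of 2.25, 2.15 and 1.40. The mitotic members MKI67, FOXM1, BUB1 and CDC20 did not pass the test with the table names, with log2 fold changes of 0.71, 0.66, 0.49 and 0.15. In the RemoLV-labelled libraries MKI67 spread from 1.87 to 15.3 CPM.

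The promoters of cell cycle genes often carry E2F, CCAAT and CHR elements, and the 250 bases before the RefSeq start site were searched for them on both strands. The letters searched were TTTCCCGC, TTTGGCGC, TTTCGCGC or TTTGCCGC for E2F. For the second element these were CCAAT itself. For the CHR element a match had to read TTTGAA, or alternatively the variant TTCGAA. Matches of E2F on opposite strands can overlap. Of the 26 promoters of the list, 5 (19.2%) held an E2F match, 15 (57.7%) a CCAAT match and 9 (34.6%) a CHR match. Among 11801 promoters of the genes tested the shares were 3.3%, 31.3% and 11.6%. Such a match is a description of the letters only. The promoters of 3 of the genes that were higher under both namings are shown because they hold the most matches among these (MCM6 and MCM3) or belong to the most abundant of them (PCNA), 5′ to 3′ on the strand of the gene (Sscrofa11.1), with matches in capitals. MCM6 (chr15:15923388-15923637, plus strand) held 3 E2F, 2 CCAAT and 1 CHR match. PCNA (chr17:14142585-14142834, minus strand) held 1 CCAAT match and MCM3 (chr7:46104426-46104675, minus strand) 3.
MCM6: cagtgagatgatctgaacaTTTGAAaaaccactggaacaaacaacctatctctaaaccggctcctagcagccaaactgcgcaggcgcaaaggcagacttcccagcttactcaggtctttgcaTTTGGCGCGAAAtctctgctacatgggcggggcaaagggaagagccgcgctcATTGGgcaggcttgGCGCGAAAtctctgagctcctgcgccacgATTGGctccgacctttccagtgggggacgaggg
PCNA: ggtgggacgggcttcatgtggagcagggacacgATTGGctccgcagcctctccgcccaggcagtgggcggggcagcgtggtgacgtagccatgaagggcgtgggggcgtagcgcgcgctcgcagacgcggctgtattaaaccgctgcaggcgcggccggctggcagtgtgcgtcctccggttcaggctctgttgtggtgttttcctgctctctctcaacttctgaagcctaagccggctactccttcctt
MCM3: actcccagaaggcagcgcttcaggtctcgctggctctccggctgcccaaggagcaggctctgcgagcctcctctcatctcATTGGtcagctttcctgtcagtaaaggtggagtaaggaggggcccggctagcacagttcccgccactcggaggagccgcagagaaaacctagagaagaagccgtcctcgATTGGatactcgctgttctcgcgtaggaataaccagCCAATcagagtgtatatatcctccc

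Genes of protein synthesis were lower. Of 64 tested cytosolic ribosomal proteins, 53 were lower and 1 was higher, with a median log2 fold change of −0.57, and 54 had no overlap between the groups. The 1 higher call was lost when any of 5 libraries (Control2, Control3, DOX1, DOX2 or DOX5) was left out and with a replicate block. Their summed level was 18025 to 21872 CPM in DOX and 27456 to 30374 CPM in Control. RPS29 was at 188, 189, 171, 167 and 182 CPM in DOX and 577, 472 and 436 CPM in Control (−1.46, SE 0.10, adjusted p = 1.45e-08), and RPS28 at 160 to 205 CPM against 380 to 552 CPM (−1.33, adjusted p = 2.89e-07). The most abundant tested ribosomal gene, RPLP0, overlapped between the groups (−0.23, adjusted p = 0.0774, and 0.0418 after GC correction). After GC correction, 56 of 62 were lower, and against Hyper 58 of 64. By table names, 3 were lower and none higher, the RemoLV-labelled libraries summing to 19260 to 20599 CPM.

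Translation factors followed, with 26 of 42 lower and none higher (median −0.39, 1 higher without Control1). EIF5B, which joins the ribosomal subunits, was at 75.1, 72, 75.7, 71 and 80.7 CPM in DOX and 217, 199 and 236 CPM in Control (−1.54, SE 0.08, adjusted p = 5.08e-10), and was slightly higher with the table names (0.27, adjusted p = 0.0296). EIF2S3, a subunit of the initiation factor that brings the first tRNA, was at 45.5 to 57.5 CPM against 130 to 172 CPM (−1.60, SE 0.12, adjusted p = 5.06e-08). It was 1 of 4 factors that were lower under both namings (−1.0 with the table names). The elongation factor EEF2 was at 1669 to 1855 CPM in DOX and 2337 to 2459 CPM in Control (−0.43, adjusted p = 3.86e-04). By table names, 11 factors were higher and 5 lower. Of 32 proteasome subunits, 23 were lower and none higher (median −0.42), such as PSMC5 (−0.75, adjusted p = 2.55e-06) and PSMA3 (−0.75, adjusted p = 2.27e-05), and with the table names 2 were higher and 1 lower.

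Genes of the respiratory chain were lower, both nuclear and mitochondrial. Of 36 tested subunits of complex I, 31 were lower and none higher (median −0.55), and their summed level was 6842 to 7531 CPM in DOX and 8877 to 11721 CPM in Control. NDUFB1 was at 93, 81.8, 93.7, 89.5 and 104 CPM in DOX and 311, 224 and 311 CPM in Control (−1.61, SE 0.12, adjusted p = 2.76e-08). NDUFA1 was at 108 to 146 CPM against 198 to 332 CPM (−1.09, adjusted p = 1.92e-05), and the abundant NDUFA4 at 921 to 1083 CPM against 1302 to 1704 CPM (−0.61, adjusted p = 2.25e-04). Of 35 subunits of complexes II to V, 25 were lower and none higher, among them ATP5ME of the ATP synthase (−1.08, adjusted p = 1.72e-04). After GC correction 33 of 36 complex I subunits were lower. The same check was void for complexes II to V, of which 10 of 35 had a GC value. Against Hyper, 29 and 22 of these subunits were lower. With the table names the direction was the opposite, with 18 complex I and 12 other subunits higher and none lower. The RemoLV-labelled libraries, with 5452 to 6519 CPM of complex I, lay below DOX.

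Of the 13 protein genes of the mitochondrial genome, 11 were lower in DOX (median −1.04). COX3 was at 13052, 12022, 23733, 13121 and 16087 CPM in DOX and 67657, 29380 and 69246 CPM in Control (−1.83, SE 0.29, adjusted p = 1.08e-04). COX1 was at 45227 to 63419 CPM against 64827 to 135669 CPM (−1.04, SE 0.20, adjusted p = 6.39e-04). Control2 was the lowest Control library for both. ND1 was at 1083 to 1359 CPM in 4 DOX libraries and at 5311 CPM in DOX3, above the 2891 CPM of Control2 (−2.22, SE 0.63, adjusted p = 0.00919). ND3 and COX3 were lower under both namings, ND3 at 712, 894, 1800, 1150 and 1533 CPM in DOX and 4659, 2787 and 4905 CPM in Control (−1.76, adjusted p = 1.62e-04, and −1.20 with the table names). After GC correction 6 of the 13 were lower. Because poly(A) selection was used, these values depend on the polyadenylation of the transcripts too, which was not measured. Of 70 mitochondrial ribosomal proteins, 40 were lower and 4 higher (2 higher after GC correction), and with the table names 26 were higher and none lower.

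Genes of fatty acid use were mostly lower by file labels. Of 33 tested members, 19 were lower and 3 higher (median −0.38). The balance turned with the table names, with 12 higher and 7 lower (median 0.22), while against Hyper 13 were lower and 1 higher. After GC correction 15 were lower and 2 higher. The number of lower genes was 12 without Control1 and 11 without Control3. LPL, which releases fatty acids from lipoproteins, was at 1733, 1230, 1237, 979 and 1144 CPM in DOX and 3317, 1946 and 3836 CPM in Control (−1.26, SE 0.20, adjusted p = 1.05e-04), and was higher in DOX with the table names (1.49). PLIN2, the coat protein of lipid droplets, was at 20.1, 18.7, 13.2, 23.7 and 21.7 CPM in DOX and 75.2, 67.7 and 69.5 CPM in Control, 3.64-fold lower (−1.86, SE 0.36, adjusted p = 5.57e-04). PLIN2 was lower under the table names (−1.63, adjusted p = 0.00226) and against Hyper (−1.85, adjusted p = 9.28e-04), the RemoLV-labelled and Hyper libraries all holding 34.6 CPM or more. FABP4, ACSL3, ACSL4 and CPT1A were the other members lower under both namings, at −0.76, −0.50, −0.74 and −0.61 by file labels. The calls of FABP4 and ACSL3 were lost without Control1, without Control3 and after GC correction (adjusted p = 0.37 and 0.716). That of CPT1A was lost when any of 6 libraries (all but DOX1 and DOX4) was left out and with a replicate block (adjusted p = 0.087). FABP4 is also a marker of adipocytes. The 5 adipocyte markers tested summed to 76.1 to 134 CPM in DOX and 152 to 160 CPM in Control, and FABP4 was the only one of them past the test. The part of fat cells in these values was not tested. UCP3, the uncoupling protein of muscle, was at 0.0611 to 0.624 CPM in DOX and 5.23, 1.07 and 4.87 CPM in Control (−3.67, SE 0.67, adjusted p = 3.82e-04), but Hyper was as low (0.226 to 0.275 CPM). The coactivator of mitochondrial genes PPARGC1A was lower (−0.90, adjusted p = 0.00359, and 0.0507 after GC correction), with DOX1 at 164 CPM above the 147 CPM of Control2.

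Of 36 genes of glucose use, 7 were higher and 13 lower, beside a background of 21.0% and 21.1%. GAPDH was at 4407 to 5487 CPM in DOX and 7145 to 9401 CPM in Control (−0.68, adjusted p = 9.89e-04). The lactate transporter SLC16A3 was higher (2.06, SE 0.60, adjusted p = 0.0112) at 5.06, 4.75, 7.33, 28 and 7.31 CPM against 3.43, 1.07 and 3.17 CPM, and was also higher with the table names (2.33, adjusted p = 0.0085). After GC correction its adjusted p was 0.0672. HK2 (0.94), PFKL (0.89), PFKFB2 (0.78) and LDHA (0.81), enzymes of glycolysis or its control, were the other members higher under both namings, and PDK4 and PDK1 (−0.76) were lower under both. The call of HK2 was lost without Control2, Control3, DOX1 or DOX4, with a replicate block (adjusted p = 0.0623) and after GC correction (0.0753). PFKFB2 lost its call without Control1 or Control2, and PFKL and PDK1 lost theirs after GC correction (adjusted p = 0.0573 and 0.078). By table names, 16 of 36 were higher and 2 lower, and after GC correction 4 of 35 were higher and 11 lower.

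Genes of the contractile apparatus that passed the test were mostly lower by file labels. Of 30 tested sarcomere genes, 13 were lower and 2 higher. After GC correction these were 15 and 0 of 29, and against Hyper 6 and 1. Without Control3, 8 were lower, and the number of higher genes varied between 0 and 2 when single libraries were left out. MYH6 was at 34229 to 38671 CPM in DOX and 31944 to 49805 CPM in Control, and the difference did not pass the test (−0.23, adjusted p = 0.223). NEXN, an actin-binding Z-disc protein, was at 637, 517, 618, 488 and 799 CPM in DOX and 1745, 1430 and 2135 CPM in Control (−1.53, SE 0.18, adjusted p = 7.75e-06). NEXN was higher with the table names (0.68, adjusted p = 0.0102), as were 17 of the 30, with 2 lower. MYH7, TTN and NPPA were not analysed here.

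Among stretch and hypertrophy genes, 5 of 17 were higher and none lower (3 higher with a replicate block, 2 higher and 3 lower without Control2, and 3 higher and 1 lower without Control3 or without DOX1). Under the other naming 10 were higher and 2 lower, with a median of 1.86 where it was 0.08 by file labels. After GC correction 3 of 14 were higher and 1 was lower. NPPB, encoding the natriuretic peptide BNP, was at 11.5, 7.55, 34.2, 29.3 and 41.8 CPM in DOX and 2.99, 0.534 and 0.846 CPM in Control, 17.6-fold higher (4.13, SE 0.98, adjusted p = 0.00281). It was at 0.618 to 2.56 CPM in Hyper and at 19.6 to 47 CPM in the RemoLV-labelled libraries (−0.36 with the table names, adjusted p = 0.734). CCN2, a matricellular protein, was at 1348, 268, 195, 145 and 49.5 CPM against 99.1, 22.6 and 88.7 CPM. The groups overlapped, and its call (2.52, adjusted p = 0.016) was lost without DOX1 or Control2.

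In calcium handling, 4 of 31 genes were higher and 11 lower. JPH2, which holds the transverse tubule to the sarcoplasmic reticulum, was at 162, 163, 146, 151 and 147 CPM in DOX and 70.8, 67.3 and 63.8 CPM in Control (1.19, SE 0.13, adjusted p = 3.34e-06), and was higher under the table names (1.11), against Hyper (1.32) and after GC correction (0.76). TRDN, which anchors calsequestrin to the release channel, was at 49.7 to 91.6 CPM against 196 to 202 CPM (−1.66, adjusted p = 1.46e-06). The release channel RYR2 was lower as well (−1.18). The calcium pump ATP2A2 overlapped between the groups (−0.33, adjusted p = 0.0833). By table names, 14 were higher and 5 lower.

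In adrenergic signalling, 10 of 28 genes were higher and 7 lower, and without Control3 these counts were 5 and 4. They were 3 and 7 after GC correction and 7 and 2 with the table names, so that the balance differed between them. The β1 receptor ADRB1 was at 49.4, 53.3, 55.3, 49.9 and 45 CPM in DOX and 25.2, 18.1 and 14.7 CPM in Control (1.39, SE 0.18, adjusted p = 1.58e-05). It was at 37.3 to 45.5 CPM in the RemoLV-labelled libraries (0.27, adjusted p = 0.267) and at 13.1 to 20.6 CPM in Hyper (1.51). The receptor kinase GRK5 was lower (−0.97), but Control2, at 183 CPM, lay within the 150 to 187 CPM of DOX, and Hyper did not differ significantly from DOX (−0.02, adjusted p = 0.954). The phosphodiesterases PDE3A (−1.01, not without Control3 and −0.05 against Hyper) and PDE4D (−1.20) were lower, and the adenylyl cyclase ADCY6 was higher (1.11). AGTR1, the angiotensin receptor, was lower under both namings at 11.7 to 21 CPM in DOX and 30.8 to 44.5 CPM in Control (−1.28, adjusted p = 3.51e-05, and −0.69, adjusted p = 0.00273).

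Collagen genes were higher by file labels. Of 22 tested, 16 were higher and none lower (median 0.88), and their summed level was 7094 to 10331 CPM in DOX, 3515 to 4846 CPM in Control and 2771 to 5245 CPM in Hyper, without overlap. COL1A1 was at 1840, 1126, 942, 1222 and 944 CPM in DOX and 622, 550 and 331 CPM in Control (1.28, SE 0.30, adjusted p = 0.0024). COL3A1 was at 3308, 2508, 2569, 3007 and 2600 CPM against 1336, 1778 and 905 CPM (1.06, SE 0.26, adjusted p = 0.00312). COL4A5 of the basement membrane was at 43.1 to 61.7 CPM against 11.4 to 18.4 CPM (1.89, SE 0.18, adjusted p = 8.84e-07). After GC correction 14 of 21 were higher, and against Hyper 17 of 22.

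With the table names the collagens went the other way, with 2 higher (COL4A2 and COL18A1, both 0.50) and 9 lower. By file labels COL4A2 and COL18A1 were higher too, but not after GC correction (adjusted p = 0.763 and 0.863). The RemoLV-labelled libraries held 13481 to 15808 CPM of collagen, more than DOX, with COL3A1 at 5963 to 6941 CPM (−1.15, adjusted p = 0.00149). Of 41 other matrix and crosslinking genes, 15 were higher and 1 lower by file labels, and 5 higher and 23 lower by table names. The single lower call, P4HA1 (−0.77), was lost when any of 5 libraries (Control1, Control3, DOX2, DOX3 or DOX4) was left out, with a replicate block (adjusted p = 0.129) and after GC correction (0.229). In addition, 3 matrix genes were lower without Control2 and 2 without DOX1. The crosslinking enzyme LOXL1 was at 26.3, 19.9, 25.5, 29.7 and 11.7 CPM in DOX and 10, 3.09 and 6.42 CPM in Control (1.81, SE 0.40, adjusted p = 0.00175). LOXL2 (1.61 and 0.90) and the lysyl hydroxylase PLOD1 (0.78 and 0.49) were higher under both namings. Of 9 fibroblast markers, 3 were higher by file labels (COL1A1, COL1A2 and GSN), whereas PDGFRA and DCN did not pass the test (−0.79 and −0.07), and 6 were lower by table names. Without Control2, 2 of the fibroblast markers were lower by file labels, and without DOX2, 1.

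Of 32 interferon-stimulated genes, 12 were higher and none lower (median 0.50). The count was 6 without Control1, 5 without Control3 and 6 without DOX5. DHX58, a sensor of viral RNA, was at 8.92, 9.07, 7.53, 5.26 and 9.08 CPM in DOX and 1.72, 3.21 and 1.06 CPM in Control (1.97, SE 0.42, adjusted p = 0.00137). OAS2 (1.90), MX1 (1.07), IRF7 (1.10) and ADAR (1.16) were also higher, while IFIT1 (−0.40) and ISG15 (0.42) did not pass the test. MX1 lost its call without Control1, Control3 or DOX1. IRF7 lost it when any of 5 libraries (all but DOX2, DOX3 and DOX4) was left out, with a replicate block (adjusted p = 0.0515) and after GC correction (0.36). By table names, 2 were higher, neither of them among the 12.

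Of 32 inflammatory genes, 8 were higher and 1 lower (4 higher without Control2 or without Control3). TNFAIP3, a feedback inhibitor of NF-κB, was higher under both namings at 23.8, 10.8, 10.8, 15.9 and 9.75 CPM in DOX and 5.3, 6.59 and 7.97 CPM in Control (1.10, SE 0.31, adjusted p = 0.00941, and 1.21, adjusted p = 0.00397). The other NF-κB inhibitor, NFKBIA, was lower by file labels (−0.86, adjusted p = 0.00338). Without Control2, 5 genes were lower, and without DOX1, 6. The counts higher and lower were 9 and 2 with the table names and 4 and 3 after GC correction.

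Of 12 macrophage markers, 8 were higher and 1 lower, but 3 were higher with a replicate block, 3 without Control2, without Control3 or without DOX4, 5 without DOX3, 2 after GC correction and 1, with none lower, with the table names. CSF1R was at 56.9, 60.2, 79, 114 and 47.9 CPM in DOX and 34, 41.5 and 23.6 CPM in Control (1.12, adjusted p = 0.00169), FCGR1A at 3.12 to 7.81 CPM against 1.05 to 1.69 CPM (1.98, adjusted p = 7.02e-04), and CD163 was lower at 35.8 to 78.3 CPM against 86.8 to 136 CPM (−1.05, adjusted p = 0.00511). The summed level of the markers was highest in DOX4 (304 to 597 CPM in DOX, 287 to 381 CPM in Control). Of 9 T and NK cell markers, 4 were higher, none with a replicate block, and 1 each with the table names and after GC correction. That count was 1 without Control2, Control3 or DOX4 and 2 without Control1 or DOX5. The 3 erythroid genes tested were lower (1 with a replicate block, 1 without Control1, Control3, DOX3, DOX4 or DOX5, and none with the table names or against Hyper), and HBB (−2.33, adjusted p = 0.0347) lost its call when any of 5 libraries (Control1, Control3, DOX3, DOX4 or DOX5) was left out and with a replicate block (adjusted p = 0.0778). The erythroid genes summed to 8.49 to 112 CPM in DOX and 36.5 to 352 CPM in Control.

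**Figure D4:**
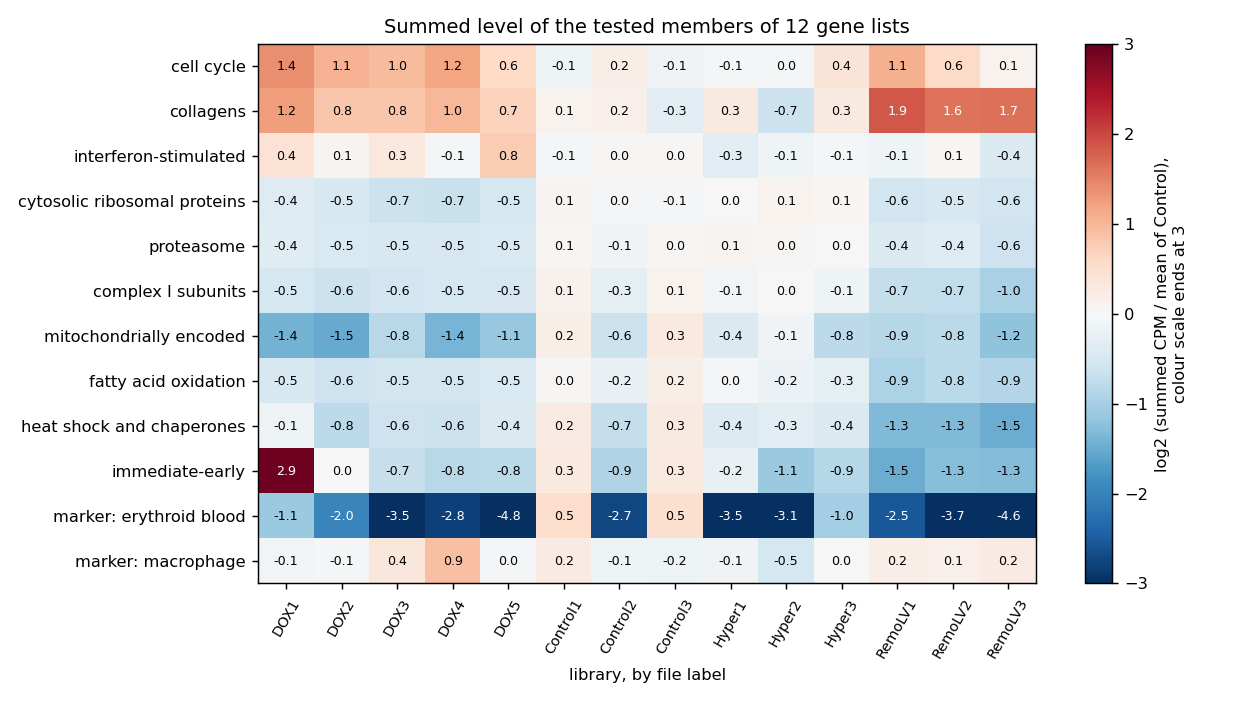
Each cell gives, for 1 library by file label, the summed CPM of the tested members of a gene list as log2 of its ratio to the Control mean, and the colour scale ends at 3. Cell cycle and collagen genes are above 0 in all DOX libraries, ribosomal, proteasome and complex I genes below 0 in all of them, and the immediate-early sum is far highest in DOX1.

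Of 34 heat shock and chaperone genes, 12 were lower and none higher, a count that was 6 without Control1, 20 without Control2 and 5 without Control3. HSPE1, the mitochondrial co-chaperonin, was at 120 to 149 CPM in DOX and 329, 221 and 372 CPM in Control (−1.19, SE 0.13, adjusted p = 4.16e-06). By table names, 20 were higher and 1 lower, and against Hyper 1 and 3. Of 33 antioxidant genes, 11 were lower and 1 higher (7 lower with a replicate block and 7 without Control3, and 3 higher without Control2 and 2 without DOX2). The table names gave 11 lower and 4 higher, and after GC correction 9 and 0. SOD1, the cytosolic superoxide dismutase, was at 105 to 117 CPM in DOX and 196, 151 and 189 CPM in Control (−0.71, SE 0.09, adjusted p = 1.91e-05). GPX3, the secreted glutathione peroxidase, was lower under both namings, at 67.7, 50.6, 60.8, 87.4 and 70 CPM in DOX and 131, 204 and 117 CPM in Control (−1.16, SE 0.29, adjusted p = 0.00382) and 366 to 851 CPM in the RemoLV-labelled libraries (−2.99). CAT, PRDX6, TXN and GCLM were the other 4 members lower under both, by file labels at −0.43, −0.64, −0.43 and −0.69, and TXNRD2 was higher under both (0.49). After GC correction CAT, TXN, GCLM and TXNRD2 did not pass the test (adjusted p = 0.247, 0.19, 0.419 and 0.255). CAT and GCLM also lost their calls with a replicate block (adjusted p = 0.0759 and 0.114), CAT without Control2, DOX1, DOX2 or DOX4, and GCLM without Control2, Control3, DOX1, DOX2 or DOX5.

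Of 19 genes of iron handling, 2 were higher and 7 lower (4 lower without Control1 and 1 higher without Control3). The balance turned with the table names to 7 higher and 4 lower, and after GC correction 1 was higher and 4 were lower. HJV was at 3.18, 4.32, 10.9, 7.39 and 4.62 CPM in DOX and 30.6, 23.4 and 51.3 CPM in Control (−2.52, SE 0.60, adjusted p = 0.00291). The ferritin heavy chain FTH1 was at 1234 to 1428 CPM in DOX and 1178 to 1379 CPM in Control (0.04, adjusted p = 0.755). The ferroxidase CP (−2.68) and the ferritin light chain FTL (−0.27) were lower under both namings. CP was barely detected, at 0 to 0.244 CPM in DOX and at 1.42, 0.119 and 0.282 CPM in Control1 to Control3. The call of CP was lost without Control1 and after GC correction (adjusted p = 0.0573), and that of FTL without Control1, Control2, DOX2 or DOX3.

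Of 23 genes of the integrated stress response, 9 were lower and 1 was higher. Without Control3 only 2 were lower. Using the table names 2 were higher and 1 lower, and against Hyper 3 and 2. The GC check was void for this list, of which 18 of 23 had a GC value. The higher one, ATF3, was at 2212 CPM in DOX1 and at 83.4, 23.6, 18.5 and 8.99 CPM in DOX2 to DOX5, against 29.2, 4.39 and 45.8 CPM in Control, and its call (4.15, adjusted p = 0.0314) was lost without DOX1, without each of the Control libraries and with a replicate block (adjusted p = 0.116). Of 26 immediate-early genes, 5 were higher. Without DOX1, 2 were higher and 9 lower, without Control2 1 and 2, without Control1 2 and without Control3 1 were higher. FOSB was at 149 CPM in DOX1 and at 0.252 to 1.44 CPM in the other DOX libraries, and its log2 fold change of 5.55 became −0.10 without DOX1. Its call (adjusted p = 0.0227) was also lost without any of the Control libraries. By table names, 15 were higher, and after GC correction 2.

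Of 23 glucocorticoid-responsive genes, 8 were lower and 1 was higher, a single call that was lost without Control1, Control3 or DOX5 and with a replicate block. Under the table names 7 were higher and 4 lower, the median going from −0.32 to 0.24, and against Hyper 2 were higher and 8 lower. Besides PDK4 and NFKBIA, those lower by file labels were FKBP5 (−1.85), ZBTB16, PIK3R1 (−0.78), FOXO3 (−0.75), HSD11B1 (−0.63) and the receptor NR3C1 itself (−0.35). PDK4, HSD11B1 and NR3C1 were lower under both namings, NR3C1 not without Control3 and not after GC correction (adjusted p = 0.941). ZBTB16 was at 62.3, 37.9, 56.3, 45.9 and 98.1 CPM in DOX and 378, 210 and 331 CPM in Control, and at 48.1 to 116 CPM in the RemoLV-labelled libraries (−0.08 with the table names). TSC22D3 (0.01) and PER1 (−0.07), further targets of the receptor, did not pass the test. Of 28 FoxO and atrophy genes, 9 were lower and 3 higher (1 higher after GC correction), and with the table names 9 were higher and 8 lower.

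**Figure D5:**
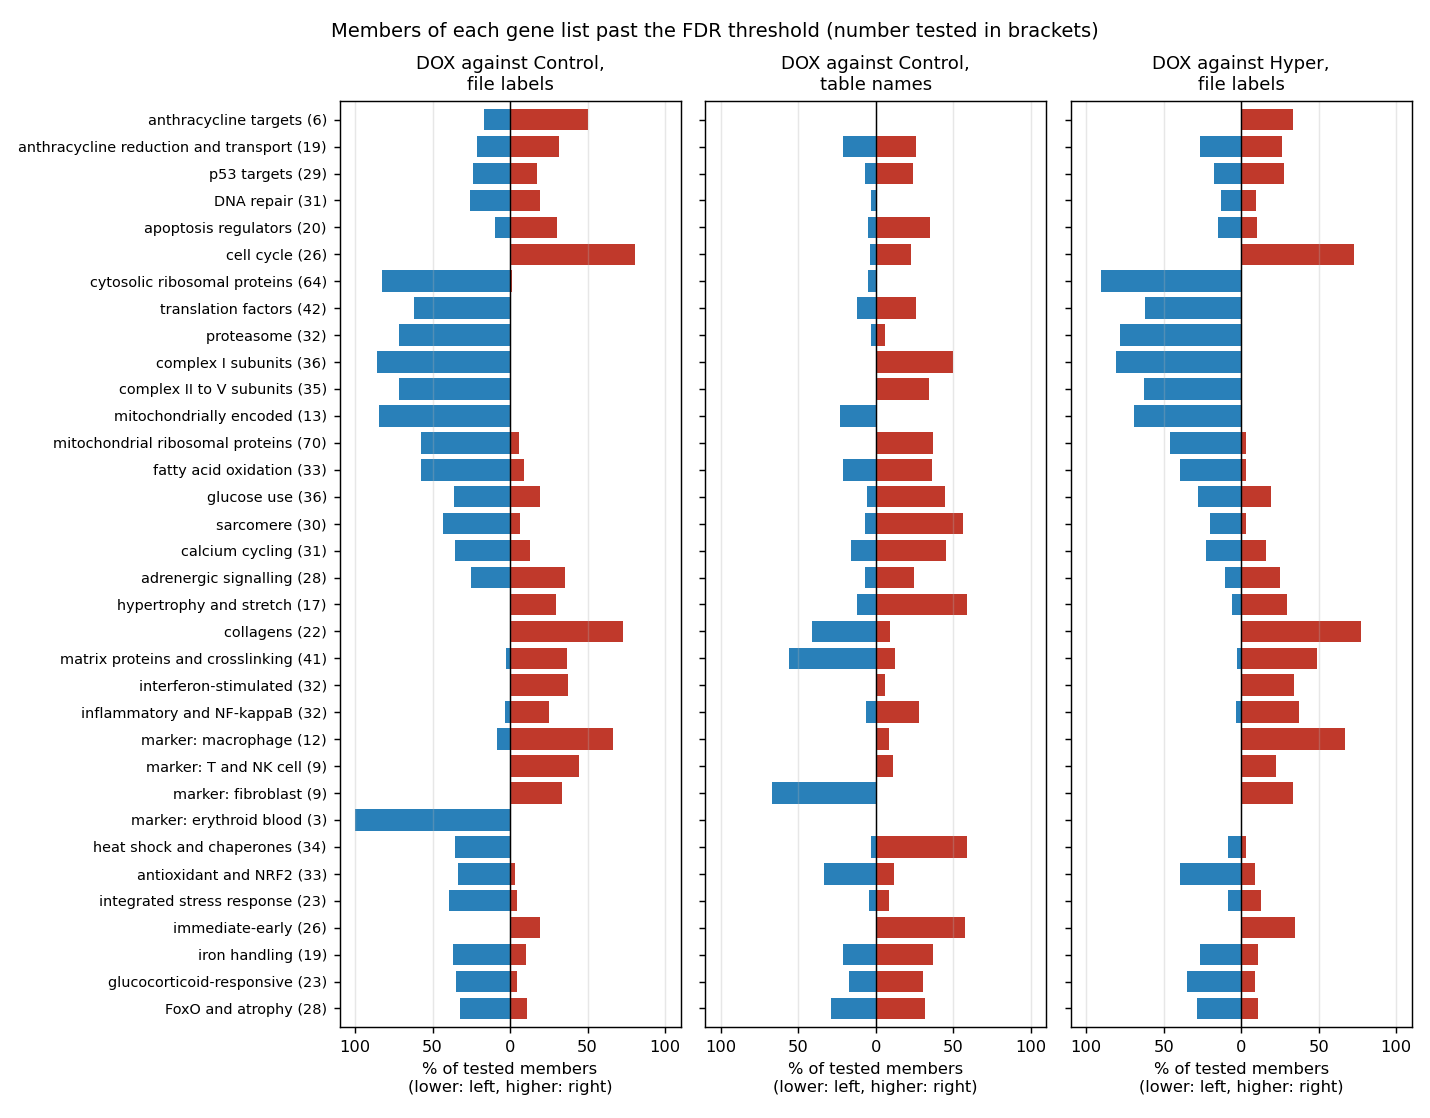
For each gene list, bars give the percent of tested members that were higher (red, right) or lower (blue, left) in DOX at the FDR threshold, by file labels, by table names and against Hyper. Ribosomal, proteasome and respiratory chain lists extend to the left by file labels and against Hyper, and with the table names the complex I, complex II to V, sarcomere and heat shock lists extend to the right and the collagen and matrix lists to the left.

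The genes described last were called in the same direction under both namings, without overlap between the groups in either. Among the higher ones, WSCD2 was at 44.7, 46.6, 29.5, 29.5 and 28.5 CPM in DOX and 8.36, 10.7 and 9.59 CPM in Control (1.90, SE 0.20, adjusted p = 2.97e-06, and 1.71 with the table names). UNC13D, which primes secretory granules for release, was at 25.7, 16.5, 20.8, 28.6 and 27.8 CPM against 5.82, 6.35 and 5.29 CPM (2.03, SE 0.28, adjusted p = 3.57e-05, and 1.24). Both were also higher than in Hyper (2.09 and 1.82). NAV2 (1.45 and 1.68), DUSP8, a phosphatase of stress-activated kinases (1.38 and 2.12), IL34, a ligand of CSF1R (1.32 and 1.90), GPR157 (1.28 and 2.55), BOK, a pro-apoptotic member of the BCL2 family (1.21 and 1.32), and NAALAD2 (1.17 and 1.92) followed, all of them higher than in Hyper as well. IL34 was at 20.7 CPM in DOX1 and 40.2 to 45.9 CPM in the other DOX libraries, against 12.2, 16 and 17.9 CPM in Control. NAALAD2 lost its call when any of 5 libraries (Control1, Control2, Control3, DOX3 or DOX5) was left out and with a replicate block (adjusted p = 0.0505).

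Among the lower ones, PDK4, PLIN2 and ND3 were described above. NMNAT2, which makes NAD, was at 55.3, 57, 118, 61.4 and 43.2 CPM in DOX and 175, 163 and 182 CPM in Control (−1.37, SE 0.35, adjusted p = 0.00483, and −1.32), but at 69.1 to 125 CPM in Hyper, and this difference did not pass the test (−0.43, adjusted p = 0.375). TECRL, whose loss causes inherited arrhythmia, was at 201, 235, 265, 234 and 359 CPM in DOX and 595, 491 and 725 CPM in Control (−1.22, SE 0.20, adjusted p = 1.40e-04), and was lower under the table names (−1.19) and against Hyper (−0.90). ART3 (−1.31 and −1.79) and CD302 (−1.22 and −1.56) were lower under both namings and against Hyper (−1.58 and −0.65).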

How the data were processed

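Poly(A) RNA from LV tissue was sequenced as stranded read pairs, and per the submitters' processing notes and the study's methods the authors used STAR to align them to Sscrofa11.1 and HTSeq 0.11.1 to count the pairs of each Ensembl gene on the reverse strand. The deposited files hold raw counts, 1 file per library. The authors' table holds log2-scale expression, used here only to match names, and the log2 fold changes and adjusted p-values of the authors' own DESeq2 comparisons, which were not used. Samples were grouped by file labels.

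Genes kept by filterByExpr (minimum count 10) were TMM-scaled and tested with the edgeR 4.0.16 quasi-likelihood test in R 4.3.3 (two-sided, 1 model of 5 groups, no block) with Benjamini-Hochberg adjustment over all genes. CPM are TMM-scaled and not length-normalized, so that levels are compared between libraries and not between genes. SEs were worked back from the test, as the absolute log2 fold change divided by the square root of its F statistic. Symbols were available for 16046 of 25879 gene IDs. Simulated data had the group sizes of this comparison. Of genes with a true absolute log2 fold change of 1, 67% were recovered, and of those with 2, 96%, with 10 false calls. The simulated data held no GC dependence and no outlying library, and their spread followed expression level alone. These values therefore do not give the error rate of the results above. GC content was that of the RefSeq mRNA, and the correction subtracted a loess curve (span 0.5) per library. GC fits, fits with GC and length, and totals without the 13 mitochondrial genes were added after seeing the data. DESeq2 1.42.0, other scalings and filters, the other namings, Hyper as reference and leaving out single libraries were further alternatives. Libraries of DOX and Control with the same number deviated together (correlations across genes of 0.242, 0.158 and 0.117 for the 3 shared numbers, and −0.218 to 0.141 between different numbers, the highest for DOX5 with Control2), so that the number was also fitted as a replicate block. This pairing comes from the data, since the labels do not say what a number marks.

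The gene lists were written by hand with earlier results of these data known, and the leading genes were named by rule. These were the 12 largest changes per direction, the 8 largest per direction under both namings, up to 2 per list and direction and the most abundant member of each list. The leading genes also had to reach 3 in mean log2 CPM without overlap between groups. The MCM genes were added afterwards. Other list members were chosen after their values were seen. Some genes named by the rule are not reported here. Counts of list members are descriptions and no test was made over a list. Some gene symbols were matched through RefSeq and others through the authors' table. Python 3.11.15 with pandas 2.3.3 and scipy 1.17.1 was used for the tables.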

Additional observations from a re-analysis of the deposited data

Results flagged for a closer look

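Among 190 sets of 5 DOX values examined (genes named here and summed CPM of gene lists), 20 had 1 outlying library. Its gap to the nearest other exceeded 0.71 of the range, the 95% critical value of Dixon. For normally distributed values about 9.5 such sets would be expected. The ratio was taken on CPM without a log, so that this number need not hold here. The library was DOX1 in 12, DOX3 in 4, DOX4 in 3 and DOX5 in 1, and the sets are not independent.

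DOX1 was highest for TYMS (18.2 CPM, others 8.31 to 9.75), ATF3 (2212 CPM, others 8.99 to 83.4), FOSB (149 CPM, others 0.252 to 1.44), CCN2 (1348 CPM, others 49.5 to 268) and HEPACAM (349 CPM, others 15.7 to 73), and lowest for IL34 (20.7 CPM, others 40.2 to 45.9). It was also highest for the summed CPM of immediate-early genes (10477, others 788 to 1384), the integrated stress response (3387, others 848 to 1022), hypertrophy and stretch genes (31916, others 15101 to 17852), matrix genes (9015, others 4284 to 5240), sarcomere genes (138315, others 115666 to 121112) and topoisomerases (308, others 278 to 287).

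DOX3 was highest for ND1 (5311 CPM, others 1083 to 1359), NMNAT2 (118 CPM, others 43.2 to 61.4) and the summed CPM of anthracycline reduction and transport (875, others 612 to 683), and lowest for MYL4 (3.13 CPM, others 9.58 to 11.9). DOX4 was highest for SLC16A3 (28 CPM, others 4.75 to 7.33), FABP4 (122 CPM, others 63 to 75.5) and antioxidant genes (4773, others 3566 to 3875). DOX5 was highest for ANKRD12 (40.9 CPM, others 26.8 to 30.9). What sets these libraries apart was not tested.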

How the results depend on the processing

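Counts higher and lower at the FDR threshold were 2842 and 2862. They fell to 1849 and 1799 with GC correction, to 1357 and 1421 with GC correction and a replicate block, and to 1662 and 1610 with GC and length correction. With Control alone taken from the table names, 1892 were lower. When single libraries were left out they ran from 1800 to 3143 and from 1987 to 3021, the lowest without Control3 and the highest without Control2.

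DEGs numbered 215 and 158. With at least 10 counts in every library they were 46 and 41, with GC correction 140 and 84, with that and a replicate block 111 and 69, and with GC and length correction 136 and 78. Down-regulated DEGs numbered 264 with DESeq2, 358 without a filter, 371 with the table names, 374 with Control alone taken from them and 91 among genes with a GC value. Leaving out libraries gave 165 to 363 and 149 to 193. A replicate block alone gave 2370 and 2423 genes at the FDR threshold, and among the 153 genes named in the report it ended the calls of MDM2, ATF3, NAALAD2, HBB, CPT1A, HK2, P4HA1, IRF7, CAT and GCLM and changed no other call. The same call under both namings was held by 1059 genes, by 551 with GC correction, by 402 with GC correction and a replicate block, and by 616 to 1016 without single libraries (662 without Control2, 616 without Control3).

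Among the 153 genes named in the report, 51 reversed sign with the table names (log2 fold changes: TOP2B 0.08, TOP1 0.31, CDKN1A 2.41, BBC3 −0.21, CCNG1 0.19, RPLP0 0.11, EIF5B 0.27, PSMC5 0.11, NDUFB1 0.10, NDUFA1 0.05, NDUFA4 0.10, ATP5ME 0.18, COX1 0.16, PPARGC1A 0.41, LPL 1.49, UCP3 0.54, GAPDH 0.38, MYH6 0.63, NEXN 0.68, NPPB −0.36, GNAS −0.66, COL1A1 −0.56, COL3A1 −1.15, COL4A5 −0.14, ADAMTS7 −0.72, MFAP2 −0.89, NFKBIA 0.16, CD163 0.34, HSPE1 0.52, HEPACAM −0.06, DKK3 −3.96, ALS2CL −0.48, C1QTNF6 −0.10, PXYLP1 −0.11, HMBOX1 0.84, ROCK2 0.13, MYL2 7.50, MYL4 −9.93, HBB 1.18, CENPE 0.20, MCM7 −0.50, GRK5 0.17, PDE3A 0.26, P4HA1 0.23, COL1A2 −1.07, GSN −0.82, ADAR −0.11, IFIT1 0.39, PIK3R1 0.24, TSC22D3 −0.24 and PER1 0.51). With Control alone taken from the table names, 49 reversed (TOP2B 0.11, TOP1 0.36, CDKN1A 2.22, BBC3 −0.11, CCNG1 0.24, RPLP0 0.13, EIF5B 0.30, PSMC5 0.09, NDUFB1 0.05, NDUFA1 0.05, NDUFA4 0.07, ATP5ME 0.14, COX1 0.20, PPARGC1A 0.43, LPL 1.45, UCP3 0.63, GAPDH 0.42, MYH6 0.62, NEXN 0.71, NPPB −0.32, GNAS −0.69, COL1A1 −0.66, COL3A1 −1.17, COL4A5 −0.05, ADAMTS7 −0.64, MFAP2 −1.0, NFKBIA 0.09, CD163 0.31, HSPE1 0.52, HEPACAM −0.06, DKK3 −3.62, ALS2CL −0.39, C1QTNF6 −0.18, HMBOX1 0.87, ROCK2 0.09, MYL2 7.49, MYL4 −9.62, HBB 1.04, CENPE 0.18, MCM7 −0.50, GRK5 0.12, PDE3A 0.32, P4HA1 0.17, COL1A2 −1.17, GSN −0.75, IFIT1 0.50, PIK3R1 0.34, TSC22D3 −0.24 and PER1 0.54). Signs were also reversed with GC correction for TOP2B 0.36, MDM2 0.05, FTH1 −0.19, DCN 0.21, NR3C1 0.01 and TSC22D3 −0.02, with GC correction and a replicate block for TOP2B 0.37, MDM2 0.03, FTH1 −0.15, DCN 0.18, ISG15 −0.11 and TSC22D3 −0.07, with GC and length correction for TOP2B 0.33, MDM2 0.01, NDUFA4 0.07, MCM7 −0.01, COL4A2 −0.10, COL18A1 −0.12, DCN 0.35, IFIT1 0.02, TXN 0.21 and TSC22D3 −0.06, against Hyper for CDKN1A 1.67, MDM2 0.01, UCP3 0.13, ATP2A2 0.06, ABCC4 −0.14, CENPE 1.13, MCM7 −0.02, ACSL3 0.00, P4HA1 0.06, PDGFRA 0.68, CP 0.23, TSC22D3 −0.50 and PER1 0.16, with a replicate block for CDKN1A 0.15, TSC22D3 −0.04 and PER1 0.01, with DESeq2 for TSC22D3 −0.01 and with RLE size factors for TSC22D3 −0.01. When single libraries were left out, the sign was reversed at least once for FTH1 (−0.02 to 0.10, the lowest without Control2), CDKN1A (−0.66 to 0.20, the highest without Control3), FOSB (−0.10 to 6.14, the lowest without DOX1), DCN (−0.18 to 0.03), TSC22D3 (−0.15 to 0.27) and PER1 (−0.32 to 0.07). Many of these genes had not passed the test. With GC correction the value changed by over 1.5 times while the call was kept for BBC3 1.04, CCNG1 −0.30, BAK1 0.60, PSMA3 −0.38, NDUFA4 −0.27, ACSL4 −0.40, JPH2 0.76, ADRB1 0.69, PDE4D −0.77, PLOD1 0.49, CSF1R 0.64, FTL −0.49, PIK3R1 −0.49, DUSP8 0.76, GPR157 0.74, BOK 0.69 and TECRL −0.76. The causes were not tested. No sign was reversed by other filters, the exchange of DOX5 and MYO1 alone or a fit of the 8 libraries alone.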
